A study of Sus scrofa with 8 samples.

Results

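Imprinted growth genes were followed by name through every count matrix of a single-cell RNA-seq study of pig somites. The set was chosen by gene symbol and held 8 names, of which 7 were matched among the 21301 genes counted, namely PEG10, PEG3, DIRAS3, DLK1, MEST, PLAGL1 and GRB10. NNAT was not analysed here. The somites, the blocks of mesoderm along the neural tube, were taken at embryonic day (E) 16, 18 and 21, while at E28 the myotome was used, which is the muscle-forming compartment of a somite. The breeds were Tibetan (ZZ) and a Duroc by Tibetan cross (DZ). Each of the 4 stages of each breed was measured in 1 library, and each of the 8 libraries was a pool of 5 embryos of 1 sow. No treatment or altered allele is given for any group.

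An imprinted gene is transcribed mainly from the copy inherited from 1 parent. PEG10, PEG3, DIRAS3, DLK1, MEST and PLAGL1 are paternally expressed in mammals, and GRB10 is, in mice, maternally expressed in most tissues and paternally in neurons. Many imprinted genes act on embryonic and placental growth, and DLK1 and the region around it are known for their part in muscle growth of livestock. The libraries count molecules of a gene without separating the parental copies, so the values below are the sum of both.

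PEG10 comes from a retrotransposon and shares its promoter region with SGCE, an imprinted neighbour that codes for a sarcoglycan and is transcribed the other way. In the Sscrofa11.1 assembly PEG10 lies at chr9:74474121-74486983 on the plus strand and SGCE at chr9:74402714-74473904 on the minus strand. The 216 bases between the annotated ends of SGCE and PEG10, at chr9:74473905-74474120, are printed below on the plus strand because both genes rose between the stages in the data that follow. Capitals mark the CG dinucleotides, the sites at which imprinted promoters carry methylation.

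PEG10-SGCE interval: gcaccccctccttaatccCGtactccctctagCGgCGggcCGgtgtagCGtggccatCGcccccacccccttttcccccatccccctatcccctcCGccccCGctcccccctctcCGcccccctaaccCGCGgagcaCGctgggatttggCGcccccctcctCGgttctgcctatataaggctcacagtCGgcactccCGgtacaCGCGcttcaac

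The interval held 18 CG dinucleotides and 68.5% G and C. Windows of the same length before the starts of 19556 protein-coding genes held a median of 11 CG dinucleotides and 58.8% G and C, and 30.2% of them held at least 18. Of 9908 protein-coding genes on the plus strand, 621, or 6.27%, had a neighbour on the minus strand ending as close to their start. The other members lie apart from this pair. GRB10, an adaptor that dampens insulin and growth factor receptor signalling, lies at chr9:136580363-136742552 on the minus strand, and MEST, a hydrolase of mesodermal tissue, at chr18:18319126-18358655 on the minus strand. MEST shares 12411 bases with COPG2 on the opposite strand. Whether the counting used strand is not given in the sources used here, so reads of MEST and COPG2 in that stretch may not be told apart. DIRAS3, a small GTPase that restrains growth, lies at chr6:144576342-144578820 on the plus strand, and PEG3, a zinc finger protein, at chr6:61281931-61307788 on the minus strand. DLK1, a transmembrane ligand of the Notch family that restrains the differentiation of fat precursors, lies at chr7:121565844-121577493 on the plus strand, and PLAGL1, a zinc finger factor that slows proliferation, at chr1:21299830-21371070 on the plus strand.

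After removal of barcodes with few genes, very many molecules, many mitochondrial molecules or a high doublet score, 74147 of 90688 barcodes were kept, 5436 to 10956 per library, with 39852689 to 57568895 counted molecules (unique molecular identifiers, UMIs). E16-ZZ stood apart, since 39.2% of its barcodes exceeded the mitochondrial limit against 1.05 to 9.15% in the other libraries. The 28 pairs of libraries shared 23 to 49 barcode sequences each. Cells were assigned to a class if they held at least 3 of that class's marker genes and more than of any other class, which left 58.9% of the cells without a class. That share ran from 39.0 to 77.0% by library and differed between stages. It was 7137 of 9300 cells in E18-ZZ and 7249 of 9410 in E18-DZ, but 3849 of 9882 in E28-ZZ and 4623 of 10956 in E28-DZ. The part of this in the stage differences within classes was not tested. Class names below therefore refer to this marker gate. Levels are counts per 1000000 UMIs (CPM) of the cells summed in a library, scaled by TMM, and they set a gene's libraries side by side. Only 1 library stands for a stage and breed, so p-values measure a spread between these libraries and not between replicates. The whole-library stage tests fitted every stage separately, with breed as a covariate. Their SEs and p-values rest on how the breeds disagree within stages, and leave out the spread between stages that are averaged together. Breed cannot be told apart from sow or pool, nor E28 from the tissue, nor E16 from the Cell Ranger version. Unless another test is named, p-values are from edgeR's quasi-likelihood test, adjusted over all genes by Benjamini-Hochberg, and a gene was called at an adjusted p below 0.05.

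In the sum of all cells, DIRAS3 and PEG10 were higher and GRB10 was lower in the 4 late libraries (E21 and E28) than in the 4 early ones (E16 and E18). These were the 3 members called of 7 tested, and 51.9% of the 15119 genes tested were called in the same comparison, so the members' share was not above that of all genes. The median log2 difference was 0.18 over the members and 0.03 over all genes. In a sum over all cells, fewer cells of a type and less RNA per cell cannot be told apart. From the youngest to the oldest stage, DIRAS3 was 13.1, 7.11, 72.3 and 21.2 CPM in the ZZ libraries and 5.31, 5.31, 33.1 and 9.62 CPM in the DZ libraries. Both E21 libraries were above every other, and E28-DZ was below E16-ZZ, so that early and late libraries overlapped. The mean was 7.70 ± 3.68 CPM (SD, n = 4) early and 34.1 ± 27.2 (SD, n = 4) late, a 3.72-fold rise in the fit (log2 1.90, SE 0.16, adjusted p = 0.00022). Here and for the other genes, the SDs include the difference between the stages of a group, which the SE and p-value leave out. Inside classes, where stage was fitted only as early or late, the tests below keep that spread.

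PEG10 was 155.55, 287, 349 and 393 CPM in ZZ and 209, 347, 376 and 346 CPM in DZ, in the same order of stages. It was lowest in both E16 libraries, and E18-DZ lay within the late range. Its means were 249.6 ± 84.3 CPM early and 366 ± 22.4 late (SD, n = 4 each), a 1.56-fold rise (log2 0.64, SE 0.11, adjusted p = 0.0038). Without both E16 libraries the difference was 0.24 (adjusted p = 0.21), and with stage fitted as 2 levels, early and late, it was 0.57 (adjusted p = 0.085). In the mean over cell classes weighted equally, the late libraries differed from the early ones by 0.0013 on the log2 scale. That mean is over the 9 to 12 classes present in each library, which are not the same ones in early and late libraries or in both breeds, E16-ZZ for one having no neuron sum, and the part of this was not tested. SGCE, the neighbour of PEG10, was 9.38, 14.05, 26.1 and 52.7 CPM in ZZ and 8.26, 15.3, 29.8 and 40.998 CPM in DZ. All late libraries were above all early ones, and the rise was 1.69 on the log2 scale (SE 0.12, adjusted p = 0.00013).

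GRB10 was 44.4, 38.0, 26.4 and 24.4 CPM in ZZ and 46.2, 40.5, 26.0 and 28.3 CPM in DZ. Early and late libraries did not overlap, and the gap lay between E18 and E21. The means were 42.3 ± 3.69 and 26.3 ± 1.58 CPM (SD, n = 4 each), a 1.58-fold fall (log2 −0.66, SE 0.08, adjusted p = 0.00083). In the mean over the classes of each library weighted equally the difference was −0.27, with the same limit. PLAGL1 was 12.2 to 17.3 CPM early and 12.6 to 13.7 late (log2 −0.11, adjusted p = 0.39). MEST differed by 0.18 (adjusted p = 0.31) and DLK1 by 0.37 (adjusted p = 0.33). Without both E28 libraries MEST was at −0.39 (adjusted p = 0.035) and DLK1 at −0.76 (adjusted p = 0.12). Without both E16 libraries DLK1 was at 2.18 (adjusted p = 0.020). PEG3 had few counts, 30 to 78 UMIs per library or 0.64 to 1.46 CPM, and its difference of −0.10 (adjusted p = 0.77) had an interval from −0.77 to 0.56.

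**Figure D1:**
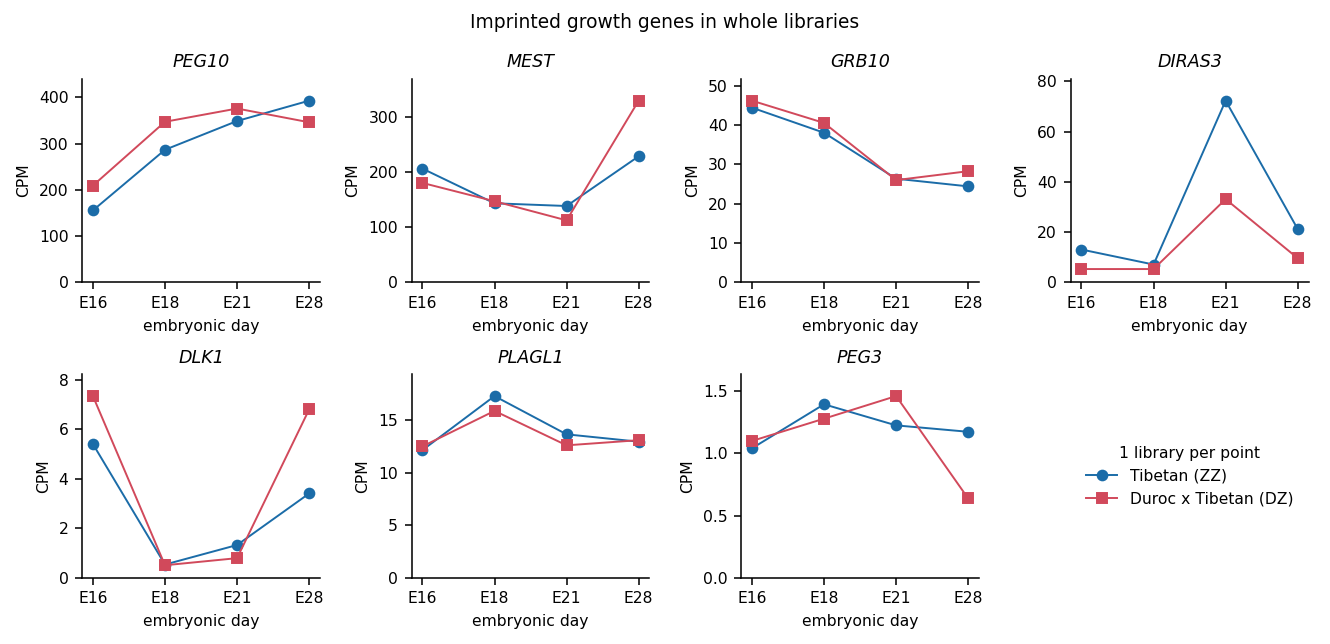
Levels of the 7 members in the sum of all kept cells, in CPM on axes that start at 0, by stage, with 1 point per library and a line per breed (circles ZZ, squares DZ). DIRAS3 peaks at E21 (72.3 and 33.1 CPM), GRB10 is lower from E21 on, DLK1 is lowest at E18 (0.54 and 0.51 CPM) and MEST is highest at E28 (229 and 330.45 CPM).

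Between neighbouring stages the members moved at different times. From E16 to E18, 2 of 7 members were called against 4.7% of all genes. DLK1 was 5.40 and 7.33 CPM at E16 and 0.54 and 0.51 at E18 (187, 374, 30 and 27 UMIs), a 12.0-fold fall (log2 −3.58, SE 0.46, adjusted p = 0.019). PEG10 was higher by 0.81 (SE 0.16, adjusted p = 0.044). Neither call held when any of the 4 libraries of these stages was left out, which leaves 1 library for a stage and takes its spread from the other stages, with DLK1 at −3.77 to −3.41 (adjusted p = 0.065 to 0.18) and PEG10 at 0.63 to 0.99 (adjusted p = 0.11 to 0.35), and the number of genes called then ranged from 17 to 989 against 711.

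From E18 to E21, 2 members were called against 21.2% of all genes. DIRAS3 rose 8.01-fold (log2 3.001, SE 0.24, adjusted p = 0.0013), and GRB10 fell by 0.56 on the log2 scale (SE 0.12, adjusted p = 0.019). The GRB10 call was lost without E18-ZZ, E18-DZ or E21-DZ (−0.48 to −0.58, adjusted p = 0.075 to 0.14). From E21 to E28, 3 members were called against 8.53% of all genes. DIRAS3 fell by 1.79 (SE 0.22, adjusted p = 0.0098), DLK1 rose 4.58-fold from 1.32 and 0.79 CPM to 3.403 and 6.79 (log2 2.19, SE 0.44, adjusted p = 0.030), and MEST rose 2.20-fold from 139 and 113 CPM to 229 and 330.45 (log2 1.14, SE 0.20, adjusted p = 0.023). Both E28 libraries were above both E21 libraries for DLK1 and MEST. The DLK1 call was lost when any library but E21-ZZ or E28-ZZ was left out (1.60 to 2.23, adjusted p = 0.050 to 0.11), the MEST call without E21-ZZ, E21-DZ or E28-DZ (0.79 to 1.36, adjusted p = 0.055 to 0.088), and the DIRAS3 call without E21-ZZ (−1.69, adjusted p = 0.057).

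At E21, where DIRAS3 peaked in the whole libraries, the share of cells gated as neurons was also highest. By stage that share was 0.28, 0.72, 17.7 and 0.58% in ZZ and 0.28, 1.67, 8.82 and 2.03% in DZ, with 95% Wilson intervals of 16.9 to 18.4% in E21-ZZ and 8.26 to 9.41% in E21-DZ. Intervals and limits of this kind cover counting error only. With those cells left out, DIRAS3 was 12.7, 6.48, 14.7 and 20.1 CPM in ZZ and 5.19, 3.53, 10.0 and 5.57 CPM in DZ. Cells without a class stayed in these sums, so neurons below the gate may remain in them. Summed alone, the cells without a class held DIRAS3 at 11.8, 5.83, 17.9 and 23.5 CPM in ZZ. In DZ they held it at 4.40, 3.97, 11.3 and 5.63 CPM. How many of them are neurons was not tested. The E21 peak was then no longer above E28-ZZ. The late rise was 0.91 (SE 0.21, adjusted p = 0.011) in place of 1.90, the rise from E18 to E21 was 1.39 (adjusted p = 0.027), and the difference from E21 to E28 was −0.18 (adjusted p = 0.75). PEG10 rose by 0.73 without those cells (adjusted p = 0.0015).

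**Figure D2:**
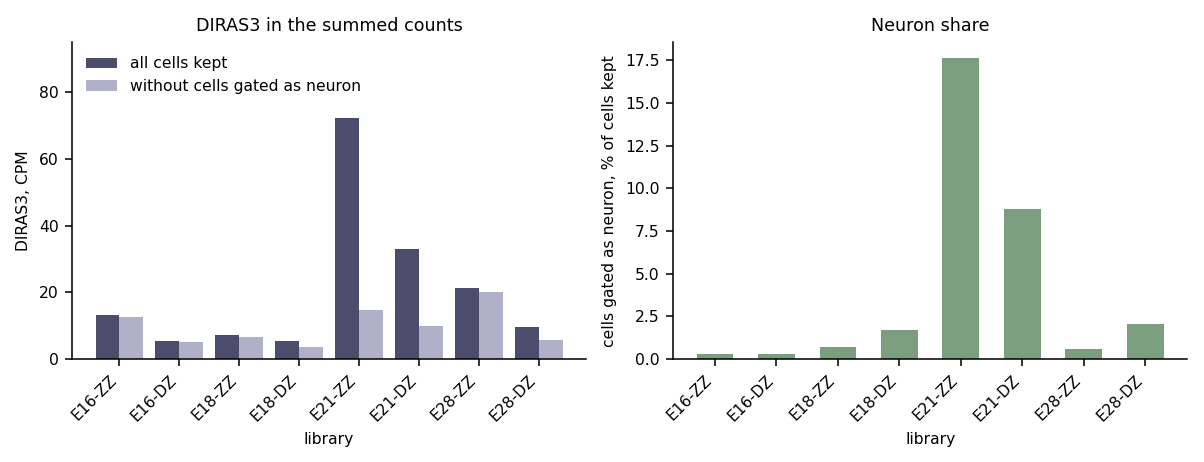
Bars of DIRAS3 in CPM by library over all cells and without the neuron-gated cells (left), and the percent of each library's cells gated as neurons (right). The E21-ZZ value goes from 72.3 to 14.7 CPM when the neuron-gated cells are left out, and E28-ZZ from 21.2 to 20.1.

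Across cell classes the members had separate patterns. Sums of at least 20 cells were made for 14 classes, 83 sums in all, and each class was compared with the mean of the others. Of 84 tests of 6 members, 29 were called, 20 of them higher in the class and 9 lower. PEG3 did not pass the filter on low counts there. For a gene with no UMI in all sums of a class, this contrast cannot find another class lower, which held for 21.6% of the genes tested and, among the members, for DIRAS3 with macrophages. Without the macrophage sums, a fit added after the data were seen, 29 of 78 tests were called, 16 higher and 13 lower. In that fit the share of all 11839 genes that was called ran from 9.24% in PAX3+ progenitors to 53.6% in neurons. In the fit with all sums the share of all 12395 genes ran from 11.6% in PAX3+ progenitors to 50.9% in neurons, and the members' counts are given beside it.

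DIRAS3 was highest in neurons. There it averaged 148.94 ± 114 CPM (SD, n = 7 libraries), 5.01 above the other classes on the log2 scale (SE 0.28, adjusted p = 1.7e-25). The ZZ sums from E18 on were 65.8, 324 and 142 CPM, and the DZ sums from E16 on 4.23 (1 UMI), 97.6, 278 and 131 CPM. All but the E16-DZ sum were above every sum of every other class. Over all sums the lateral plate gate, present at E16 and E18, came next at 29.8 and 21.6 CPM in ZZ and 10.5 and 7.94 CPM in DZ (log2 2.63, SE 0.44, adjusted p = 5e-06). Among the late sums neurons were followed by neural progenitors at 37.0 ± 19.7 CPM (SD, n = 2) and crest and glial cells at 20.5 ± 8.47 (SD, n = 4). Macrophages had no UMI of DIRAS3 in either of their 2 sums, which allows up to 12.9 and 17.99 CPM before TMM (the limit of 3 UMIs). Without the macrophage sums, neurons were 4.44 and lateral plate cells 2.08 above the other classes, and DIRAS3 was lower in myogenic progenitors and myoblasts (−1.93, SE 0.48, adjusted p = 0.0019), chondrocytes (−1.41, adjusted p = 0.010), myocytes (−1.37, adjusted p = 0.019) and endothelial cells (−0.90, adjusted p = 0.046). In the order of mean log2 levels, neurons were above lateral plate cells (difference 2.20, adjusted p = 0.0001) and lateral plate above epithelial cells (1.40, adjusted p = 0.037), while crest and glial cells were above myogenic progenitors and myoblasts (1.85, adjusted p = 0.012). The other 10 pairs of neighbours in the order were not called.

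PEG10 was highest in neurons among the early sums, at a mean of 1100.6 ± 94.5 CPM (SD, n = 3), and in myogenic progenitors and myoblasts among the late ones, where neurons averaged 239 ± 61.1 CPM (SD, n = 4), below late fibroblasts at 384 ± 102 (SD, n = 4). In myogenic progenitors and myoblasts it was 469.9 and 684 CPM in ZZ and 406 and 783 CPM in DZ at the late stages (log2 1.97 above the other classes, SE 0.30, adjusted p = 7e-07), and in myocytes, the differentiating muscle cells, 414, 311 and 333 CPM in ZZ and 587, 272 and 471 CPM in DZ from E18 to E28 (log2 1.17, SE 0.26, adjusted p = 0.00019). Over both periods neurons averaged 608 ± 466 CPM (SD, n = 7; log2 1.63, adjusted p = 2.7e-08). Chondrocytes (0.82, adjusted p = 0.0091) and fibroblasts (0.74, adjusted p = 0.013) were also higher. Endothelial (−1.80, adjusted p = 7.3e-07), erythroid (−1.44, adjusted p = 0.00042) and macrophage sums (−3.01, adjusted p = 0.014) were lower. Without the macrophage sums the chondrocyte and fibroblast differences were 0.58 and 0.52 (adjusted p = 0.069 and 0.089). The myocyte difference was 0.72 (adjusted p = 0.067) at a mitochondrial limit of 5%, and the myoblast difference 1.13 (adjusted p = 0.074) without both E28 libraries. Single libraries decided some of these calls, as chondrocytes were not called without E28-ZZ or E28-DZ (0.49 and 0.62, adjusted p = 0.17 and 0.082) and fibroblasts without any 1 of the 4 late libraries (0.45 to 0.60, adjusted p = 0.057 to 0.17). None of the 13 neighbouring pairs in the order was called.

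MEST was called higher in 5 classes, with its highest mean in fibroblasts. Fibroblasts averaged 342 ± 164 CPM (SD, n = 8; log2 1.72, SE 0.18, adjusted p = 1.9e-12), lateral plate cells 216 ± 87.6 (SD, n = 4), epithelial cells 203 ± 72.8 (SD, n = 5), myoblasts 201 ± 35.5 (SD, n = 4) and chondrocytes 193 ± 123 (SD, n = 8). The last 4 were higher by 1.00 to 1.03, and 0 of the 13 neighbouring pairs in the order were called. Lateral plate cells were measured only early, where epithelial cells averaged 234 ± 28.9 CPM (SD, n = 4), and among the late sums chondrocytes averaged 302 ± 51.8 and fibroblasts 268 ± 205 (SD, n = 4 each). Endothelial cells at 37.2 ± 13.9 CPM (log2 −1.55), crest and glial cells at 36.0 ± 10.3 (−1.66) and erythroid cells at 49.0 ± 25.8 (−1.31) were lower (SD, n = 8 each, adjusted p from 1.4e-07 to 0.00025). Every fibroblast sum was above every crest sum. Without E16-ZZ or E16-DZ the lateral plate difference was 0.80 and 0.84 (adjusted p = 0.082 and 0.079), without both it was 0.35 (adjusted p = 0.77), and with a gate of 2 markers 0.49 (adjusted p = 0.14).

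Against the mean of the other classes DLK1 was highest in myocytes, and in the late libraries every myocyte sum was above every sum of another class. In the early ones it was not, since the highest sums were those of E16-DZ neurons and E16-ZZ fibroblasts given below, and the E16 cells without a class were at 5.21 and 9.67 CPM. In myocytes it was at 0 in both E18 myocyte sums, with limits of 4.92 and 4.44 CPM before TMM, and at 18.3 to 27.5 CPM in the 4 late ones, 4.72 above the other classes (SE 0.48, adjusted p = 2.1e-13). Fibroblasts followed at 28.2, 4.10, 0.27 and 1.87 CPM in ZZ and 3.26, 8.46, 0.19 and 9.66 CPM in DZ (log2 1.97, SE 0.44, adjusted p = 0.00028), and myocytes were above them (2.55, adjusted p = 0.0002). Neurons were higher by 1.45 (adjusted p = 0.031), with 46.5 CPM in E16-DZ, or 11 UMIs, as the highest neuron sum. That call was lost without E16-DZ, E21-ZZ or E21-DZ (1.16 to 1.36, adjusted p = 0.074 to 0.16), in DESeq2 (1.04, adjusted p = 0.26) and with a gate of 4 markers (0.68, adjusted p = 0.36). The difference in endothelial cells was −1.9997 (adjusted p = 0.020), and −1.68 without E16-ZZ (adjusted p = 0.12), and it could not be estimated without E16-DZ. DLK1 averaged 0.49 CPM in endothelial sums and was at 0 in all 4 late ones. Its level was about as low in PAX3+ progenitors (0.33 CPM), erythroid cells (0.65) and crest and glial cells (0.89).

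GRB10 stood highest in endothelial cells, at 79.3, 57.0, 68.4 and 73.7 CPM in ZZ and 72.2, 61.4, 57.0 and 112 CPM in DZ. The difference from the other classes was 1.41 (SE 0.13, adjusted p = 8.5e-16), and the distance to cardiac muscle, next in the order over all sums, was 0.75 (adjusted p = 0.011). Cardiac muscle was measured only early. Among the early sums GRB10 averaged 45.8 ± 10.4 CPM in cardiac muscle (SD, n = 4) and 50.3 ± 9.18 in neural progenitors (SD, n = 3). Neural progenitors were higher by 0.67 (adjusted p = 0.013), macrophages lower (−2.83, adjusted p = 0.0027, and −2.73 with 0.061 in DESeq2) on 0 UMIs in E28-ZZ (limit 12.9 CPM before TMM) and 2 in E28-DZ, and cardiac muscle higher by 0.60 (adjusted p = 0.049), a call lost when any library but E21-ZZ was left out (0.39 to 0.66, adjusted p = 0.071 to 0.24). The neural progenitor call was lost without E18-DZ or E28-ZZ (0.62 and 0.46, adjusted p = 0.063 and 0.096). Without the macrophage sums, the neural progenitor and cardiac muscle calls were lost (0.46 and 0.38, adjusted p = 0.083 and 0.22) and GRB10 was lower in chondrocytes (−0.56, adjusted p = 0.0028) and epithelial cells (−0.71, adjusted p = 0.002). PLAGL1 was highest in neural progenitors, with 47.6 and 33.6 CPM in ZZ at E18 and E21 and 4.12 (1 UMI), 36.5 and 44.2 CPM in DZ up to E21 (log2 1.43, SE 0.25, adjusted p = 8.5e-06). Erythroid cells were also higher (0.95, adjusted p = 0.00065) and endothelial cells lower (−0.67, adjusted p = 0.0052), and both calls were lost without both E16 libraries (0.66 and −0.43, adjusted p = 0.079 and 0.17). For PLAGL1, 0 of the 13 neighbouring pairs in the order were called. PEG3 was at most 10.0 CPM in any sum, and its highest mean was in neural progenitors, 3.37 ± 1.41 CPM (SD, n = 5).

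By class, members were called for 1 of 6 in cardiac muscle (16.2% of all genes), 2 in chondrocytes (20.7%), 5 in endothelial cells (38.5%), 1 in epithelial cells (20.3%), 3 in erythroid cells (45%), 3 in fibroblasts (28.2%), 2 in lateral plate cells (12.1%), 2 in macrophages (15.8%), 2 in myocytes (36.2%), 2 in myogenic progenitors and myoblasts (22.5%), 1 in crest and glial cells (21%), 2 in neural progenitors (21%), 3 in neurons (50.9%) and none in PAX3+ progenitors (11.6%). At a mitochondrial limit of 5%, 4 of the 5 endothelial calls were lost, with PEG10 at −0.64 (adjusted p = 0.26), MEST at −0.76 (0.052), PLAGL1 at −0.45 (0.45) and DLK1 at 0.13 (0.85).

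**Figure D3:**
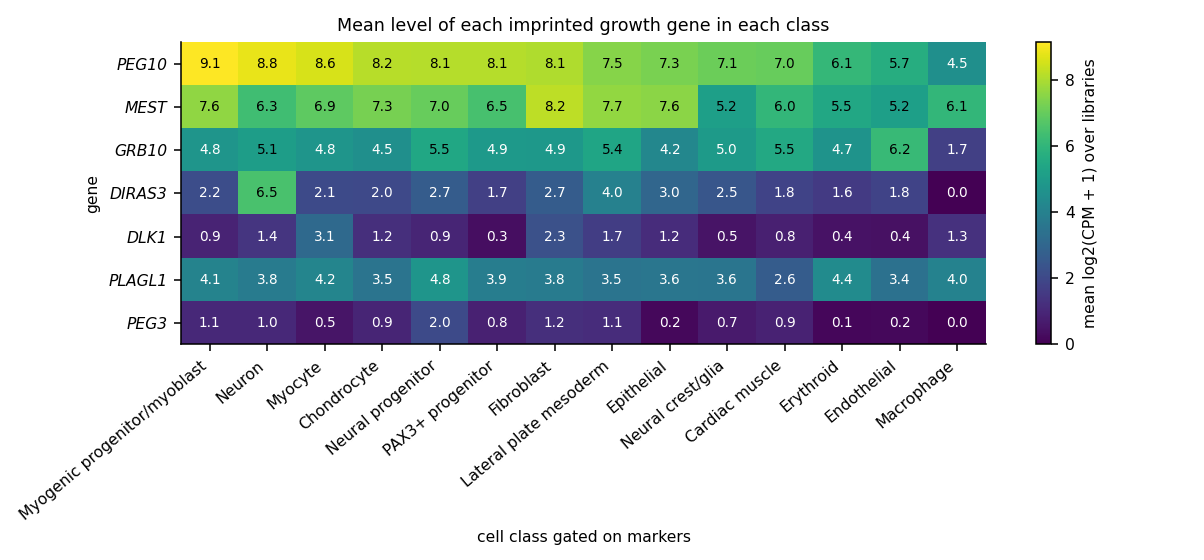
Mean level of each member in each cell class, in log2(CPM + 1), averaged over the libraries with at least 20 cells of the class. DIRAS3 is highest in neurons, DLK1 in myocytes, MEST in fibroblasts, GRB10 in endothelial cells, PLAGL1 in neural progenitors and PEG10 in myogenic progenitors and myoblasts.

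Within single classes the direction of the stage difference depended on the class. Late and early libraries were compared inside 6 classes with breed as a covariate, and 9 of 28 member tests were called. These calls include DIRAS3 in crest and glial cells, which passed the filter on low counts through its late sums and is only a description. Of all genes, 17.2% were called in chondrocytes, 28.7% in fibroblasts, 17% in neurons, 26.6% in crest and glial cells, 26.5% in endothelial cells and 1.63% in erythroid cells. A fit with the class by stage interaction called PEG10 (adjusted p = 6.3e-09), MEST (9.9e-06), PLAGL1 (0.018) and GRB10 (0.049), while DIRAS3 (0.067) and DLK1 (0.090) were not called, and 43.3% of 10998 genes were called in it.

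PEG10 fell in the neural classes and rose in fibroblasts. In neurons it was 1001 to 1189.5 CPM in the 3 early sums and 169.6 to 298 CPM in the 4 late ones, a fall by 2.32 (SE 0.20, adjusted p = 0.00043). In crest and glial cells it was 251, 209, 62.8 and 66.2 CPM in ZZ and 289.7, 241, 72.9 and 100.07 CPM in DZ, a fall by 1.71 (SE 0.18, adjusted p = 7.3e-06). Early and late libraries did not overlap in either class, and the fall in both was the opposite of the rise in the whole libraries.

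In fibroblasts PEG10 was 169, 242, 458 and 354 CPM in ZZ and 130.2, 232, 472 and 252 CPM in DZ, a rise of 0.91 (SE 0.24, adjusted p = 0.018) that was lost without E16-ZZ or E16-DZ (0.80 both, adjusted p = 0.070 and 0.061). All late fibroblast sums were above all early ones. The contents of the gates moved with stage as well. In the neuron gate the summed level of the 8 neuron markers was 1434 to 4178 CPM early and 11060.5 to 13753 late, and that of the 6 neural progenitor markers 119.8 to 257 early and 15.4 to 91.9 late. In the fibroblast gate the 7 lateral plate markers summed to 647 to 955 CPM early and 5.84 to 46.3 late, and in the lateral plate gate itself they summed to 669 to 937 CPM, so that early fibroblast sums of every member come from a gate with as high a level of these markers. In the crest and glia gate the 8 neuron markers summed to 527 to 694 CPM early and 107 to 209 late. Their part in the PEG10 differences was not tested.

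MEST rose in chondrocytes, where it was 42.8, 129, 295 and 344 CPM in ZZ and 88.4, 78.0, 231 and 336 CPM in DZ (log2 1.70, SE 0.25, adjusted p = 0.0013). All late sums were above all early ones. The 9 chondrocyte markers in that gate summed to 1139 to 1956 CPM early and 3346 to 10719 late, and the 9 fibroblast markers to 419.6 to 1323 early and 1740.8 to 4791 late, and their part was not tested. In endothelial cells MEST was 45.5, 42.3, 28.4 and 34.9 CPM in ZZ and 61.7, 40.6, 30.1 and 14.4 CPM in DZ, a fall by 0.81 (SE 0.25, adjusted p = 0.038) that was lost without E16-DZ, E21-ZZ, E21-DZ or E28-DZ (adjusted p = 0.061 to 0.11). In that gate the 7 lateral plate markers summed to 77.6 to 119.4 CPM early and 0 to 31.2 late, the 9 chondrocyte markers to 413 to 576 early and 110.002 to 305 late, and the 9 endothelial markers to 3613 to 4042 early and 5937 to 8226 late, and their part was not tested. In fibroblasts, where its mean over all sums was highest, MEST was 514, 363, 135 and 277 CPM in ZZ and 345, 438, 106 and 555 CPM in DZ. Both E21 fibroblast sums were below all others, and the difference of −0.74 (adjusted p = 0.23) between late and early was not called.

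DIRAS3 differed between stages in crest and glial cells, where it was at 0 in both E16 sums (limits of 6.05 and 4.55 CPM before TMM) and then at 1.44, 12.0 and 27.5 CPM in ZZ (2, 24 and 17 UMIs) and 1.118, 14.4 and 28.0 CPM in DZ (3, 15 and 21 UMIs). All late sums were above all early ones, and the fitted difference was 4.26 (SE 0.60, adjusted p = 0.00013). The early sums held 0 to 3 UMIs, so DIRAS3 passed the filter on low counts through its late sums. Its fitted size and p-value in this class are therefore a description. The neuron markers in the crest and glia gate, given for PEG10, were lower late. Neurons themselves averaged 55.9 ± 47.5 CPM of DIRAS3 early (SD, n = 3) and 219 ± 96.7 late (SD, n = 4). In the crest and glia gate the 9 fibroblast markers summed to 401 to 707 early and 1788 to 3976 late. The 6 neural progenitor markers summed to 10.1 to 45.5 early and 180.1 to 459 late. The part of any of these was not tested. In fibroblasts DIRAS3 was 10.4, 5.47, 9.64 and 27.9 CPM in ZZ and 0, 0.60, 6.72 and 8.06 CPM in DZ, with a fitted rise of 1.66 (SE 0.51, adjusted p = 0.035) kept in 9 of 18 alternatives. It was lost without E16-DZ, E18-ZZ, E18-DZ or E28-ZZ (1.29 to 1.58, adjusted p = 0.067 to 0.18), and the 8 neuron markers in the fibroblast gate summed to 26.0 to 48.2 CPM early and 325 to 1329 late. In neurons the difference was 1.64 (SE 0.54, adjusted p = 0.062).

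GRB10 fell in fibroblasts, from 33.8, 35.8, 33.5 and 40.5 CPM early to 19.8, 26.0, 22.1 and 22.0 late (log2 −0.75, SE 0.16, adjusted p = 0.0061), with no overlap. With a gate of 4 markers the difference was −0.35 (adjusted p = 0.66). The lateral plate markers in the fibroblast gate were lower late, as given for PEG10, and lateral plate cells held GRB10 at 30.8 to 51.2 CPM, and the part of this was not tested. In endothelial cells, where its level was highest, the difference was 0.22 (adjusted p = 0.46). PLAGL1 rose in crest and glial cells by 1.09 (SE 0.36, adjusted p = 0.038), from 5.59 to 11.7 CPM in the early sums to 9.69 to 19.2 CPM in the late ones. The neural progenitor markers in that gate, given for DIRAS3, were also higher late, neural progenitors are the class where PLAGL1 was highest, and their part was not tested. The groups overlapped, and the call was kept in 8 of 16 alternatives, being lost when any library but E16-ZZ and E28-ZZ was left out (0.76 to 1.14, adjusted p = 0.073 to 0.21).

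**Figure D4:**
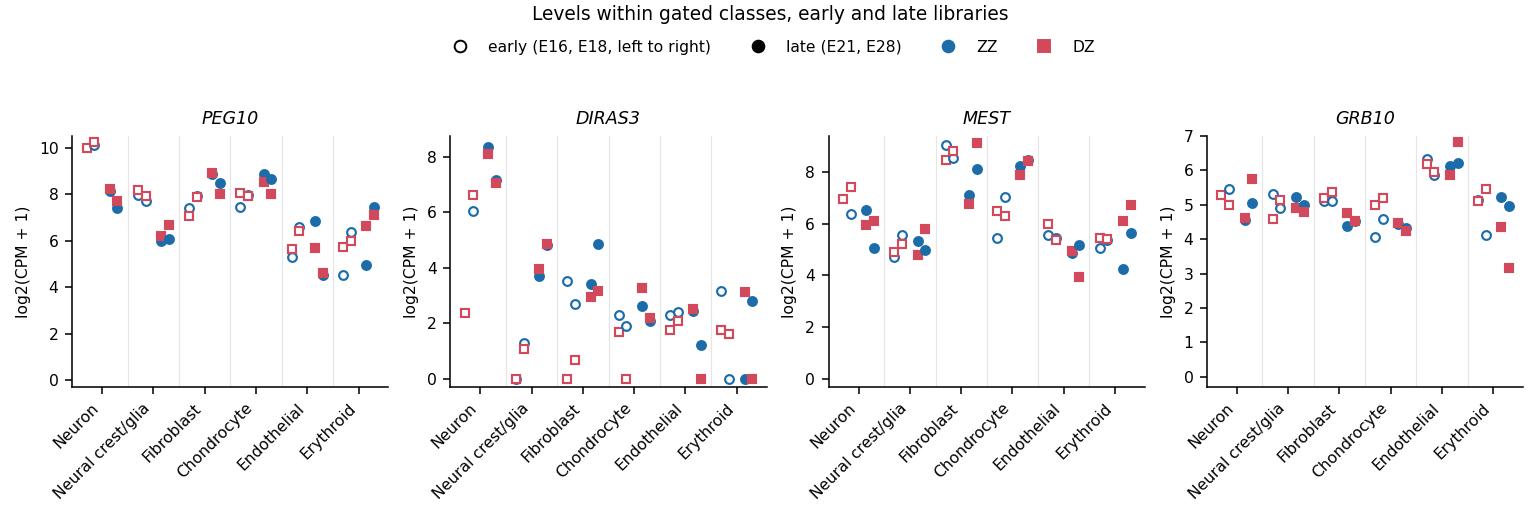
Levels of 4 members in log2(CPM + 1) inside the 6 classes compared between stages, 1 point per library with at least 20 cells of the class (open early, filled late, circles ZZ, squares DZ). PEG10 is lower late in neurons (169.6 to 298 CPM against 1001 to 1189.5) and in crest and glial cells, and MEST is higher late in chondrocytes. DIRAS3 is higher late in crest and glial cells, where its early sums held few UMIs.

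Between the breeds no member was called. In the whole libraries the edgeR test with stage as a block called 0 of 15119 genes, or 0%, with 918 at an unadjusted p below 0.05, and DESeq2 called 57. In the whole libraries DIRAS3 was the member with the largest breed difference. ZZ was above DZ at every stage, by 2.46 times at E16, 1.34 at E18, 2.18 at E21 and 2.21 at E28. In edgeR's quasi-likelihood fit the difference of DZ from ZZ was −1.01 (95% interval −1.39 to −0.64, adjusted p = 0.46, unadjusted 0.00038). In DESeq2 it was −1.02 with an adjusted p of 3e-05, the call that edgeR did not make. In the mean over classes weighted equally, over class sets that differ between the breeds, the difference was −0.20. DIRAS3 was the only 1 of the 7 members in which a breed was the higher at all 4 stages. PEG10, for example, had DZ over ZZ ratios of 1.34, 1.21, 1.08 and 0.88 from E16 to E28. The share of all genes with the same breed higher at all 4 stages was not computed, so this count is only a description. The differences of DZ from ZZ were 0.15 for PEG10 (interval −0.12 to 0.42), 0.20 for DLK1 (−0.52 to 0.93), −0.17 for PEG3 (−0.83 to 0.50), 0.07 for GRB10 (−0.12 to 0.27), −0.06 for PLAGL1 (−0.29 to 0.17) and 0.01 for MEST (−0.33 to 0.34). A test of whether the late rise differed by breed called none of the 15119 genes.

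Inside the classes, 0 of 41 breed tests of members were called, with 2 at an unadjusted p below 0.05. Of all genes, 0% were called in PAX3+ progenitors, 0.197% in myocytes, 0.209% in chondrocytes, 0.0837% in fibroblasts, 0% in neurons, 0.0374% in crest and glial cells, 0% in endothelial cells and 0.154% in erythroid cells. The DIRAS3 difference of DZ from ZZ was −0.03 in neurons, its main class, −1.47 in fibroblasts (adjusted p = 0.17, and 0.00012 with no filter on low counts), −2.05 in myocytes (adjusted p = 0.35), −0.52 in endothelial cells, 0.25 in chondrocytes and 0.10 in crest and glial cells. Without E21 the fibroblast difference was −1.95 (adjusted p = 0.035). Leaving out E21-ZZ or E21-DZ gave this same fit, since the test keeps only stages with both breeds. The neuron share was higher in ZZ at E21 and in DZ at E18 and E28, with nearly equal shares at E16, and without the neuron-gated cells the whole-library difference was −1.14 (adjusted p = 0.57). In lateral plate cells, measured at 2 stages and not tested between breeds with the gate of 3 markers, both ZZ sums were above the DZ sum of their stage, and with a gate of 2 markers the difference was −1.54 (adjusted p = 0.014). Counted over 40 pairs of sums of the same class and stage, DIRAS3 was higher in ZZ in 27 and in DZ in 11, with no UMI in both in 2. The same counts were 17 and 23 for PEG10, 20 and 20 for MEST, 16 and 24 for GRB10, 19 and 21 for PLAGL1, 13 and 12 for DLK1 and 11 and 18 for PEG3, with the rest of the pairs of DLK1 and PEG3 at 0 in both breeds. Pairs of 1 library share their embryos and are no replicates of each other.

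**Figure D5:**
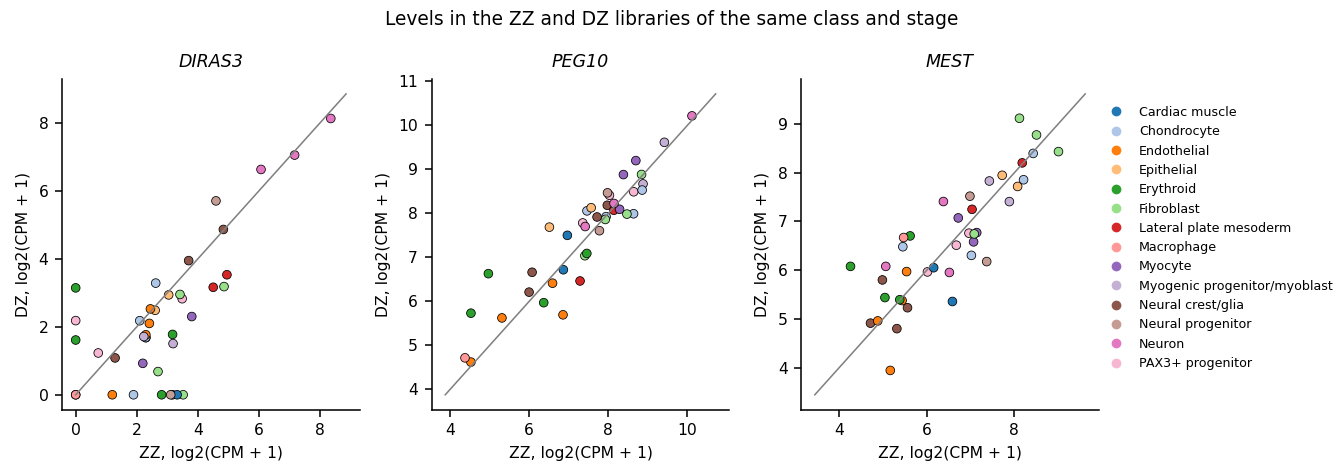
Levels of 3 members in ZZ (x axis) and DZ (y axis) for sums of the same class and stage, in log2(CPM + 1), coloured by class, with the line of equal levels. DIRAS3 has 27 of its 40 pairs on the ZZ side, while MEST has 20 on each.

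Of 51 other imprinted genes on a list fixed for this set, 36 were matched by symbol and 33 were tested in the whole libraries. IGF2, H19 and MEG3 were not analysed here. Late against early, 8 were higher and 6 lower, 42.4% against 51.9% of all genes, with a median difference of 0.15. SGCE rose as given above. NDN, a growth suppressor expressed in postmitotic neurons, rose by 0.55 (adjusted p = 0.0018) and CDKN1C, an inhibitor of cyclin-dependent kinases, by 0.76 (adjusted p = 0.017), while IGF2R, the receptor that clears IGF2, was at −0.03 (adjusted p = 0.82). The largest called differences were those of DLX5, a homeobox factor of skeletal development (−3.15, adjusted p = 7e-05), and ASCL2, a bHLH factor of the trophoblast (−2.76, adjusted p = 0.0097), the latter at 0.02 to 0.39 CPM.

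Between neighbouring stages, 33 of these genes were tested. At E18, 1 was higher and 2 were lower than at E16 (9.09% against 4.7% of all genes), led by PHLDA2, a placental growth suppressor (−1.55, adjusted p = 0.045), and PPP1R9A (0.78, adjusted p = 0.044). At E21 against E18, 3 were higher and 5 lower (24.2% against 21.2% of all genes), led by DLX5 (−2.70) and TFPI2 (−1.38), with SGCE at 0.95 (adjusted p = 0.012). At E28 against E21, 3 were higher (9.09% against 8.53% of all genes), among them CALCR (3.95, adjusted p = 0.042, under 1 CPM) and SGCE (0.73, adjusted p = 0.044), and none was lower. No gene of the list was called between the breeds.

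Inside the classes, stage called 12 of 21 of these genes in fibroblasts (57.1% against 28.7% of all genes, 5 higher and 7 lower), led by AMPD3 (−3.79) and ZDBF2 (−2.89), 5 of 19 in endothelial cells (26.3% against 26.5%, 4 higher), led by KCNQ1 (2.26) and RB1 (1.87), and 5 of 15 in crest and glial cells (33.3% against 26.6%), all higher, led by PHLDA2 (1.80) and SGCE (1.48). In chondrocytes 4 of 17 were called (23.5% against 17.2%, 3 higher), led by OSBPL5 (1.70) and SGCE (1.48), and in neurons 2 of 17 (11.8% against 17%), both lower, PON2 (−3.80) and IGF2R (−1.27). None of 10 was called in erythroid cells. In the whole libraries AMPD3 was at only 0.30 to 1.35 CPM, ZDBF2 at 0.66 to 3.03 and KCNQ1 at 0.29 to 1.05. The differences given for these genes within classes therefore rest on few UMIs. In crest and glial cells SGCE rose and PEG10 fell. Against the other classes, 15 of 26 were called in myocytes (57.7% against 36.2% of all genes), 12 in endothelial cells (46.2% against 38.5%) and 11 each in fibroblasts (42.3% against 28.2%) and neurons (42.3% against 50.9%). In each of the rest 3 to 10 were called, or 11.5 to 38.5% of the list against 11.6 to 45% of all genes. The largest differences called were those of DLX5 in epithelial cells (6.83, adjusted p = 2.8e-17) and SLC22A18, a transporter, in erythroid cells (5.78, adjusted p = 2.9e-25). CDKN1C was higher in myocytes by 3.25 (adjusted p = 1e-29), SGCE in fibroblasts by 1.32 (adjusted p = 1.3e-10), NDN in neural progenitors by 0.63 (adjusted p = 0.00095) and IGF2R in myocytes by 0.86 (adjusted p = 0.00011).

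Over the 83 sums, the members were alike only in part. The Pearson correlation of log2(CPM + 1) was 0.54 between MEST and PEG10 and 0.44 between DLK1 and MEST, and it ran from −0.19 to 0.36 for the other pairs. The sums come from 8 libraries and share their depth and cells' stage, so these values are a description. Of 7954 genes with a mean of at least 10 CPM, those most like DIRAS3 were MAPT (0.73), which is one of the markers that gated neurons, SCG3 (0.71) and VSTM2L (0.70). MEST was most like EGFR (0.73), P3H3 (0.72) and SDC2 (0.72), and PEG10 most like 2 genes without a symbol in the files (0.75 and 0.72) and GPRASP2 (0.71). NCKAP1 (0.60) and AFDN (0.58) were among the genes most like GRB10. For DLK1 the highest were a gene without a symbol (0.54), DERL2 (0.51) and PARK7 (0.50), for PLAGL1 a gene without a symbol (0.58), HSD17B8 (0.52) and MFSD3 (0.51), and for PEG3 SLIT2 (0.51), BCAS4 (0.47) and LRRC49 (0.46).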

How the data were processed

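The deposited UMI counts were made by the authors from 10x Chromium 3′ v3 libraries with Cell Ranger, version 3.1.0 for E16 and 3.0.2 for the other libraries per the file headers, on Sscrofa11.1. They are whole counts per gene and barcode, neither normalized nor split by allele.

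Barcodes were kept that had at least 200 genes, at most 30000 UMIs and at most 10% of these on mitochondrial genes. Doublets were the highest Scrublet scores (Scanpy 1.11.5) at 0.8% per 1000 barcodes, 8247 in all, against 1318 above the automatic threshold. A cell entered a class with at least 3 of its markers and more than of any other class, ties were unassigned, and markers in over 30% of cells were not counted. This rule was set after the data were seen. The 74147 cells gave sums of counts per library, and per library and class with at least 20 cells, while 43678 cells had no class. No authors' cell annotation was used.

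Sums were tested with edgeR 4.0.16 (quasi-likelihood, TMM, default filter on low counts) in R 4.3.3 with limma 3.58.1, and adjusted by Benjamini-Hochberg over all genes. Stages were fitted with breed as a covariate, breeds with stage as a block, and classes with library as a block. Late against early was the mean of E21 and E28 minus the mean of E16 and E18 in a fit of 4 stages, and a factor of 2 levels within classes. Genes were named by a rule: all members in every comparison, CDKN1C, IGF2R, SGCE and NDN, the 2 largest called changes among the other imprinted genes per comparison, and the 3 genes most correlated with a member, 1 of which is not reported here. The members and lists were chosen with earlier results of these data known. The code was checked on simulated data, in which 59% of 2-fold changes between late and early whole libraries were recovered and 55.4% of those in fibroblasts. Alternatives were DESeq2 1.42.0 and its size factors, no filter, a mitochondrial limit of 5%, no doublet removal, at least 1000 UMIs per cell, gates of 2 or 4 markers, 2-level stage, equally weighted classes, both E16 or E28 libraries left out, and each library left out. Leaving out the neuron-gated cells or the macrophage sums was added after the data were seen. Other computations were run in Python 3.11.15 (matplotlib 3.10.9, pandas 2.3.3, scipy 1.17.1, numpy 2.4.6).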

Additional observations from a re-analysis of the deposited data

Results flagged for a closer look

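Among 101 groups of 4 library sums of a member in a class, 4 held a library that stood apart from the other 3 by Dixon's criterion, and chance alone marks about 1 group in 20. DIRAS3 in late fibroblasts was 27.9 CPM in E28-ZZ (478 UMIs) against 6.72 to 9.64 in the other late sums. MEST in early erythroid cells was 32.0 CPM in E16-ZZ (16 UMIs) against 40.7 to 42.4, PLAGL1 in early chondrocytes was 4.42 in E16-DZ (2 UMIs) against 11.004 to 12.2, and PLAGL1 in early erythroid cells was 17.9 in E18-ZZ (11 UMIs) against 30.0 to 31.5.

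The late against early difference of 4 members varied between the 6 classes by an interaction test (edgeR quasi-likelihood, adjusted over all genes). The same test called 43.3% of all 10998 genes. PEG10 had an adjusted p of 6.26e-09, falling in neurons and crest and glial cells and rising in fibroblasts, where the call was lost in some alternatives. MEST had 9.94e-06, rising in chondrocytes and falling in endothelial cells. PLAGL1 had 0.0181 and GRB10 0.0493.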

How the results depend on the processing

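The counts of members called between early and late whole libraries (3) and of their calls between classes (29) stayed within 1.5 times under every alternative run, but not always with the same members. At a mitochondrial limit of 5%, 21 class calls were made, and 11 of the 27 original ones that could be tested were lost, those of PEG10 in chondrocytes, endothelial cells, fibroblasts and myocytes, GRB10 in cardiac muscle and neural progenitors, MEST in endothelial and lateral plate cells, DLK1 in endothelial cells and neurons, and PLAGL1 in endothelial cells. Without both E16 libraries 22 were kept. Within classes, stage made 9 calls in the 28 tests of members, and 15 with no filter on low counts, 4 at a mitochondrial limit of 5% and 3 with a gate of 4 markers. The 9 calls include that of DIRAS3 in crest and glial cells, which is only a description. Breed called 0 members in the whole libraries and 1, DIRAS3, with DESeq2. Within classes breed made 0 calls, and 1 with no filter, 1 with a gate of 2 markers and 0 to 1 with a library left out. Over all genes, late against early called 7849, and 5048 with a 2-level stage and 4576 without both E16 libraries. From E16 to E18 it was 711, and 2145 with DESeq2 and 52 at a mitochondrial limit of 5%. From E21 to E28 it was 1290, and 2298 with DESeq2 and 327 to 982 with a library left out.

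The PEG10 rise between early and late was not called with a 2-level stage (0.57, adjusted p = 0.085). Differences of members that were not called changed sign in some fits, and the cause was not tested. Late against early, without both E28 libraries PEG3 was at 0.19, DLK1 at −0.76 and MEST at −0.39 (adjusted p = 0.035), and DLK1 was at −0.17 with a 2-level stage and 2.18 (adjusted p = 0.020) without both E16 libraries. With single libraries left out, PEG3 ranged from −0.38 to 0.11, DLK1 from −0.00061 to 0.64 and MEST from −0.0044 to 0.32, the latter called without E28-ZZ (adjusted p = 0.044). For DZ against ZZ, without both E28 libraries PEG3 was at 0.058, DLK1 at −0.097 and MEST at −0.16, and at a mitochondrial limit of 5% PLAGL1 was at 0.047 and MEST at −0.0032. With single libraries left out, PEG3 ranged from −0.30 to 0.069, DLK1 from −0.097 to 0.51 and MEST from −0.16 to 0.12. With the classes present in each library weighted equally, late against early was −0.91 for PEG3, 0.11 for PLAGL1, −0.069 for MEST and −0.036 for DLK1, and DZ against ZZ was 0.61 for PEG3 and 0.19 for GRB10. DLK1 in endothelial cells was at 0.13 at a mitochondrial limit of 5%.

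Breeds were compared with stage as a block and classes with library as a block, and the labels hold no replicate numbers for another pairing. PEG3, with 30 to 78 UMIs per library, was too sparse to be tested within classes.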
